A study of Homo sapiens with 4 samples.

Results

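The genes described here are 34 members of the Hippo pathway and its transcriptional output, out of 17490 genes listed in at least 1 of the 4 libraries. They were taken by name from the pathway and its reported targets, with earlier results of these data known. The 16 pathway genes are the kinase module (STK3, STK4, SAV1, LATS1, LATS2, MOB1A, MOB1B and NF2), the coactivators YAP1 and WWTR1 (which encodes TAZ), and the TEAD factors with their cofactors (TEAD1 to TEAD4, VGLL3 and VGLL4). The 18 targets are 6 genes whose products feed back on the pathway (AMOTL1, AMOTL2, AJUBA, NUAK2, PTPN14 and WWC1) and 12 others. All 34 were matched to a Gene ID and were listed in all 4 libraries.

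Messenger RNA came from H1975 and HCC827, established human lung adenocarcinoma lines with activating EGFR mutations. H1975 was profiled as cells sensitive and as cells resistant to osimertinib, an irreversible EGFR tyrosine kinase inhibitor. HCC827 was profiled as cells sensitive and as cells resistant to gefitinib, a reversible inhibitor. Each of these 4 groups had 1 library, and for that reason differences within a line carry no p-value and were not checked in replicates. Each drug was paired with 1 line, so a difference between the lines and a difference between the drugs cannot be told apart. The sources used here do not say how resistant cells were derived, whether they are clones, or whether drug was present at harvest.

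In the Hippo pathway, the kinases STK3 and STK4 (MST2 and MST1) act with the scaffold SAV1 on LATS1 and LATS2, which act with MOB1 proteins to phosphorylate YAP and TAZ. Phosphorylated YAP and TAZ are held in the cytoplasm or degraded. Unphosphorylated YAP and TAZ enter the nucleus, bind the TEAD transcription factors and activate genes of growth, adhesion and matrix signalling, some of which restrain the pathway in turn. In EGFR-mutant lung cancer, YAP is known for its association with survival of cells under EGFR inhibition. The control of YAP and TAZ is largely by phosphorylation and location, which messenger RNA does not measure.

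Levels are given as FPKM (fragments counted per transcript length and library size), as deposited. Differences are log2 ratios of normalised read counts, the resistant over the sensitive library of the same line. Square brackets hold their 95% exact intervals, which cover counting error only. A gene was considered in a line if a library of that line had at least 1 FPKM and 20 counts, and was called higher or lower where the ratio was at least 2-fold and the interval excluded 0. Summed expected counts were 22145163 for sensitive and 22217897 for resistant H1975, and 10934558 and 11034837 for the HCC827 libraries, so intervals are wider in HCC827 at the same level. All 9 epithelial and lung adenocarcinoma markers checked were listed in each library, although NKX2-1, the lung lineage factor, had 0.08 FPKM in resistant HCC827. Their summed level was 3090 and 1040 FPKM in sensitive and resistant H1975, and 7210 and 2150 FPKM in sensitive and resistant HCC827. The part of this epithelial difference in the results below was not tested. Of the considered epithelial markers, 5 of 8 were called lower in H1975 and 9 of 9 in HCC827. In bulk RNA, fewer cells of a type and less RNA per cell cannot be told apart. Fibroblast markers summed to 17.4 and 10.9 FPKM in H1975 and 1.91 and 5.77 FPKM in HCC827, with at most 2 of 7 at 1 FPKM or more. COL1A1 had most of the sum in H1975 (14.9 and 9.41 FPKM), and COL1A2 was called lower there (1.77 and 0.20 FPKM). In HCC827 LUM was called higher (3 and 66 counts, 0.13 and 2.83 FPKM) and COL1A2 had 2 and 28 counts. DCN had no entry in either HCC827 library. The part of these markers in the results was not tested. Endothelial markers summed to 0.54 to 1.31 FPKM, with at most 1 of 4 at 1 FPKM or more. Blood cell markers summed to 82.2 to 106 FPKM, most of it CD68, and the pan-leukocyte marker PTPRC had 0.27 to 0.50 FPKM.

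In H1975 none of the 15 pathway genes considered was called. Of the 18 targets, CCN2 and RBMS3 were called higher and ANKRD1 lower. Across all 11872 genes considered in H1975, 3.21% were called higher and 8.56% lower, so the members' 2 higher and 1 lower among 33 were not far from the shares over all genes. In HCC827 the pathway genes LATS2 and TEAD4 were called higher and none of the 16 was lower, and 4 of 18 targets were higher (CCN1, ANKRD1, RBMS3 and FJX1) and 2 lower (F3 and NT5E). Over all 11890 genes considered in HCC827, 7.05% were called higher and 11.0% lower. The median log2 ratio of the pathway genes was −0.02 in H1975 and 0.02 in HCC827, and that of the targets was 0.15 in H1975 and 0.53 in HCC827. Over all genes considered the median was 0.00 in H1975 and within 0.01 of 0 in HCC827. No test was made of a list against other genes.

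**Figure D1:**
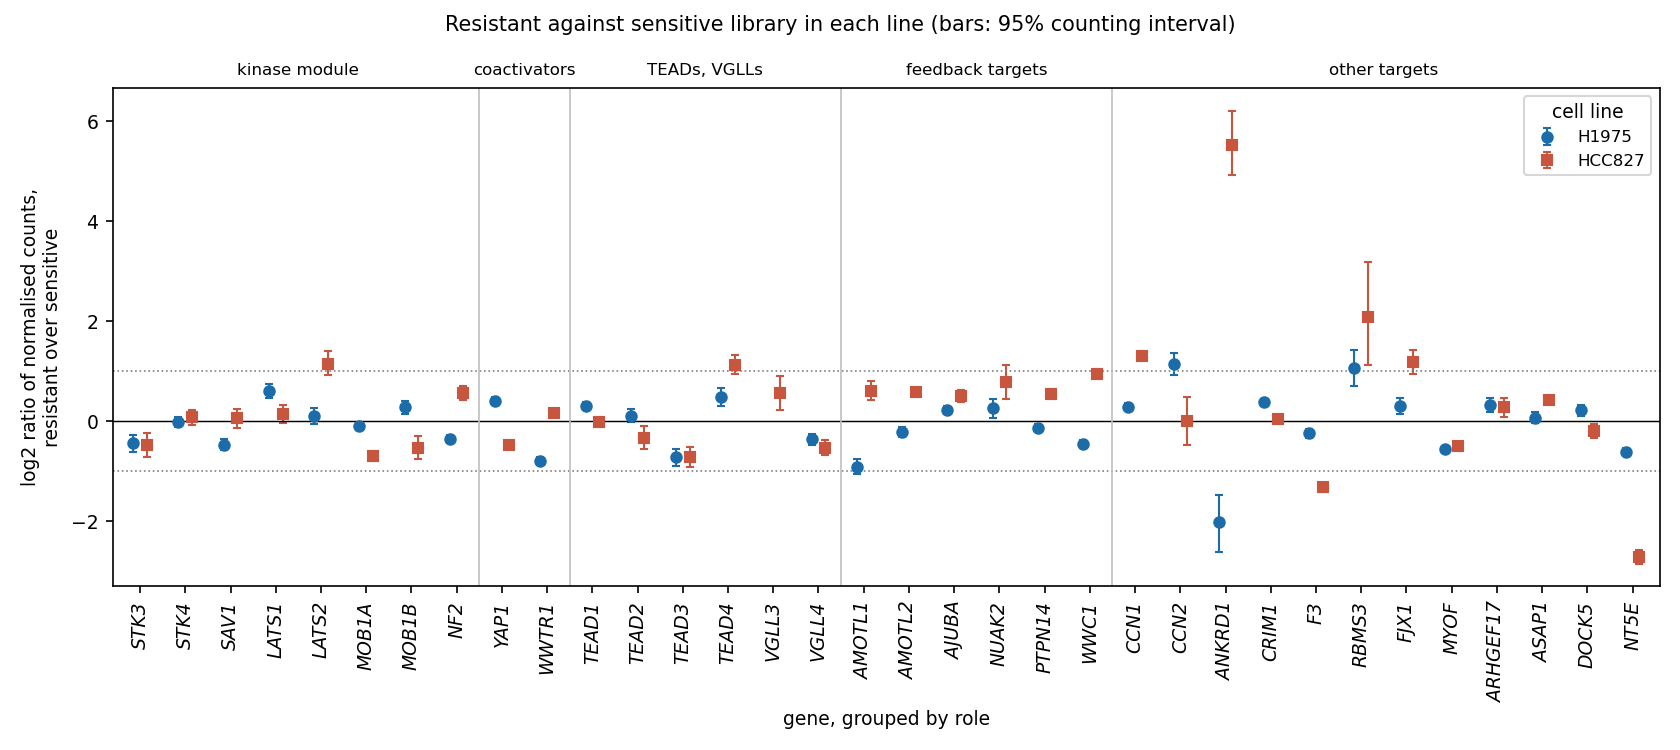
Log2 ratio of normalised counts (vertical axis), resistant over sensitive, for each member (horizontal axis) in H1975 (circles) and HCC827 (squares); bars are 95% counting intervals from 1 library a group, and dotted lines mark 2-fold. Most pathway genes lie between the dotted lines, all 6 feedback targets lie above 0 in HCC827, and ANKRD1 has values of −2.02 and 5.53 in the 2 lines.

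The kinase module was expressed in every library, and 1 of its 16 ratios, 8 in each line, reached 2-fold. STK3 had 10.3 and 7.52 FPKM in sensitive and resistant H1975 and 11.3 and 8.53 FPKM in HCC827. Its log2 ratios were −0.44 [−0.62, −0.27] and −0.47 [−0.71, −0.24], a like difference in both lines. STK4, its paralogue, was flat, with 10.3 and 10.2 FPKM in H1975 and 11.02 and 12.1 FPKM in HCC827 (sensitive, resistant). The scaffold gene SAV1 had 20.9 and 14.9 FPKM in H1975 (−0.47 [−0.58, −0.35]) and 12.7 and 13.7 FPKM in HCC827 (0.06 [−0.13, 0.25]).

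The LATS kinases, which phosphorylate YAP and TAZ, were the members of the module with the highest ratios, a different one in each line. LATS1 had 4.17 and 6.55 FPKM in H1975 and a log2 ratio of 0.60 [0.46, 0.75], and 7.55 and 9.33 FPKM in HCC827 with 0.14 [−0.04, 0.32]. LATS2, which is also a target of YAP and TAZ, had 4.81 and 5.05 FPKM in H1975 (0.11 [−0.06, 0.27]). In HCC827 it had 3.37 and 7.80 FPKM, 2.23-fold higher (1.15 [0.92, 1.40]). Resistant HCC827 thus had the highest LATS2 level of the 4 libraries, and the other 3 lay between 3.37 and 5.05 FPKM.

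MOB1A and MOB1B encode the coactivating partners of LATS1 and LATS2. MOB1A, the more abundant per length, had 38.5 and 35.9 FPKM in H1975 and 42.9 and 27.4 FPKM in HCC827, where the log2 ratio was −0.70 [−0.79, −0.60]. MOB1B had 6.25 and 7.57 FPKM in H1975 (0.28 [0.15, 0.41]) and 5.62 and 4.68 FPKM in HCC827 (−0.53 [−0.76, −0.30]). The paralogues share sequence and their counts were not whole, so their values are uncertain. NF2 (merlin), an upstream activator of LATS kinases and a tumour suppressor, had 39.5 and 32.1 FPKM in H1975 (−0.35 [−0.41, −0.28]) and 11.9 and 17.1 FPKM in HCC827 (0.57 [0.43, 0.70]). NF2 was therefore lower in resistant cells of one line and higher in those of the other, below 2-fold in each.

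The coactivators YAP1 and WWTR1 went in opposite directions within each line, and the direction was reversed between the lines. YAP1 had 25.4 and 33.4 FPKM in H1975 (log2 ratio 0.41 [0.34, 0.48]). In HCC827 it had 40.4 and 30.3 FPKM (−0.47 [−0.56, −0.38]). WWTR1 had 30.1 and 17.3 FPKM in H1975 (−0.79 [−0.87, −0.71]), 1.73-fold lower in the resistant library and the furthest from 0 of the pathway genes considered in that line. In HCC827 WWTR1 had 46.6 and 54.3 FPKM (0.16 [0.09, 0.24]). None of these 4 ratios reached 2-fold. As a share of the summed FPKM of the pair, YAP1 made up 45.8% and 65.8% in sensitive and resistant H1975, and 46.4% and 35.8% in sensitive and resistant HCC827. The sensitive libraries of the lines thus had like shares, and the resistant libraries did not. The sum of the pair was 55.5 and 50.7 FPKM in H1975 and 86.95 and 84.6 FPKM in HCC827.

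**Figure D2:**
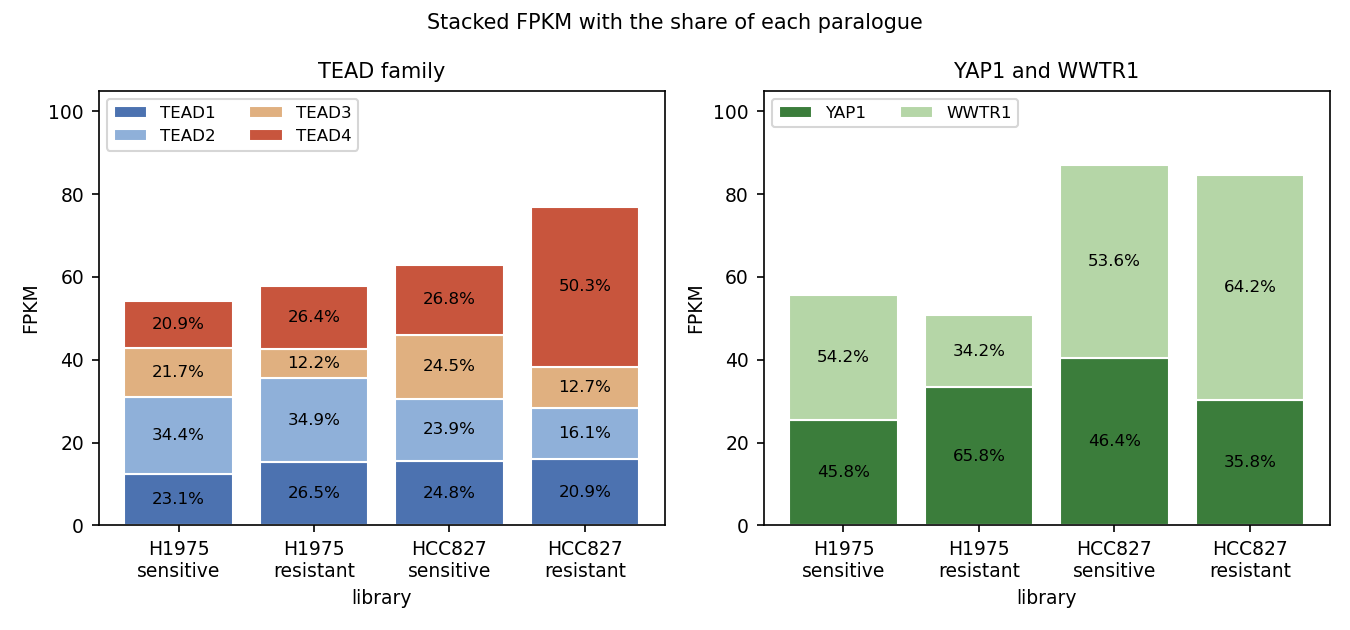
Stacked FPKM (vertical axis) of TEAD1 to TEAD4 (left) and of YAP1 and WWTR1 (right) in each of the 4 libraries, with the share of each gene printed in its segment. TEAD4 takes 50.3% of the TEAD sum in resistant HCC827 and 20.9% to 26.8% elsewhere, and the larger share of the YAP1 and WWTR1 pair lies with YAP1 in resistant H1975 and with WWTR1 in resistant HCC827.

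The TEAD genes encode the DNA-binding partners of YAP and TAZ. In sensitive HCC827 the 4 genes had nearly equal levels, from 15.0 FPKM (TEAD2) to 16.8 FPKM (TEAD4). In resistant HCC827, TEAD4 had 38.7 FPKM and was 2.19-fold higher (log2 ratio 1.13 [0.94, 1.32]). Its share of the TEAD sum was 26.8% in sensitive and 50.3% in resistant HCC827. In H1975 TEAD4 had 11.3 and 15.3 FPKM (0.48 [0.30, 0.66]), below 2-fold. TEAD3 had nearly the same ratio in both lines and was called in neither, with 11.7 and 7.03 FPKM in H1975 (−0.72 [−0.89, −0.56]) and 15.4 and 9.81 FPKM in HCC827 (−0.71 [−0.91, −0.51]). As a share of the TEAD sum, TEAD3 took 21.7% and 12.2% in H1975 and 24.5% and 12.7% in HCC827, and TEAD4 took 20.9% and 26.4% in H1975.

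TEAD1 differed little, with 12.5 and 15.3 FPKM in H1975 (0.31 [0.24, 0.38]) and 15.6 and 16.1 FPKM in HCC827 (−0.01 [−0.11, 0.09]). TEAD2 had the highest level of the family in H1975, 18.6 and 20.2 FPKM (0.11 [−0.02, 0.25]), and had 15.0 and 12.4 FPKM in HCC827 (−0.33 [−0.56, −0.10]). VGLL4, which competes with YAP and TAZ for TEADs, was called in neither line, with 19.8 and 14.7 FPKM in H1975 (−0.36 [−0.47, −0.26]) and 19.97 and 14.3 FPKM in HCC827 (−0.53 [−0.68, −0.37]). VGLL3, another TEAD-binding cofactor, was close to absent in H1975, with 1.2 and 5.85 expected counts, and was not considered there. In HCC827 it had 1.45 and 1.83 FPKM (0.56 [0.22, 0.90]).

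**Figure D3:**
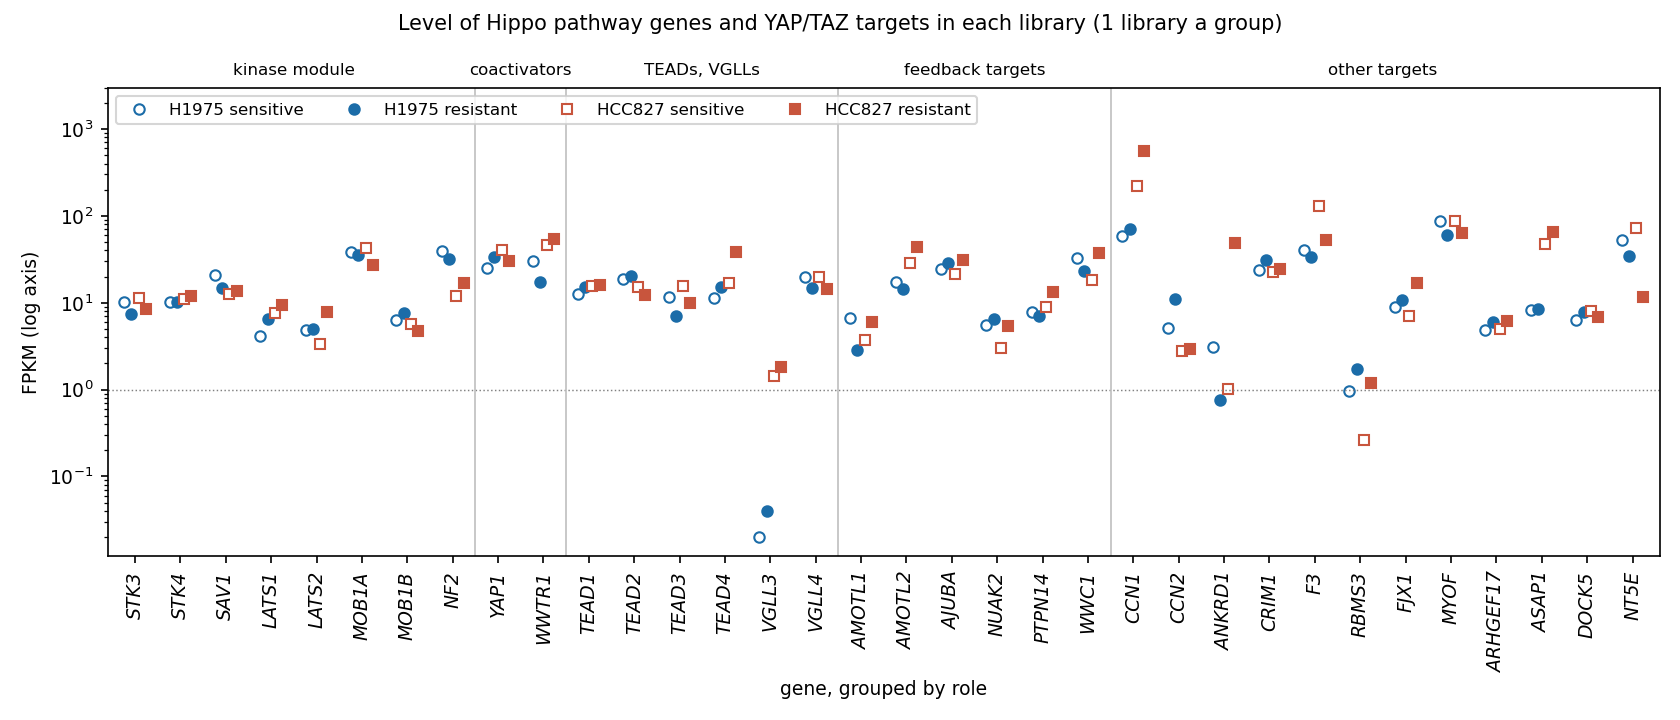
FPKM of each member (horizontal axis, grouped by role) in each library on a log axis; open symbols are sensitive and filled symbols resistant, circles H1975 and squares HCC827, 1 library a group, and the dotted line marks 1 FPKM. Pathway genes other than VGLL3 lie between 3.37 and 54.29 FPKM, and the targets spread from 0.26 FPKM (RBMS3) to 557 FPKM (CCN1).

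None of the 6 feedback targets was called in either line. In HCC827 their log2 ratios ran from 0.51 to 0.95 and all 6 intervals lay above 0, as did 34.6% of the intervals of all genes considered. In H1975 their ratios ran from −0.91 to 0.26, with 2 intervals above and 4 below 0, against 36.4% and 36.8% over all genes. WWC1 (KIBRA), an upstream activator of LATS kinases, had 18.4 and 36.9 FPKM in sensitive and resistant HCC827 (0.95 [0.85, 1.04]), the nearest of the 6 to a call. Scaled by total counts it just reached 2-fold and was called. In H1975 it had 32.6 and 23.0 FPKM (−0.45 [−0.53, −0.38]). NUAK2, a kinase that restrains LATS activity, had 3.02 and 5.39 FPKM in HCC827 (0.78 [0.44, 1.12]) and 5.58 and 6.55 FPKM in H1975 (0.26 [0.07, 0.45]). NUAK2 and AJUBA were the only 2 of the 6 with intervals above 0 in both lines. AJUBA, a LIM-domain protein that inhibits LATS kinases, had 21.2 and 31.3 FPKM in HCC827 (0.51 [0.39, 0.63]) and 24.7 and 28.8 FPKM in H1975 (0.22 [0.14, 0.30]).

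The angiomotin-like proteins AMOTL1 and AMOTL2 hold YAP at junctions and in the cytoplasm. AMOTL2 had 28.6 and 44.4 FPKM in HCC827 (0.58 [0.48, 0.67]) and 17.1 and 14.6 FPKM in H1975 (−0.21 [−0.31, −0.11]). AMOTL1 had 3.77 and 5.95 FPKM in HCC827 (0.61 [0.42, 0.80]). In H1975 AMOTL1 had 1080 and 571 expected counts, 1.88-fold lower (−0.91 [−1.06, −0.76]), but 6.61 and 2.83 FPKM, which is past 2-fold (−1.20 on the log2(FPKM + 0.1) scale). The mean transcript length in the deposited table was 7296 bases in sensitive and 8952 bases in resistant H1975, a change of 22.7%, so counts and FPKM do not give the same call. PTPN14, a phosphatase that binds and retains YAP, had 8.82 and 13.4 FPKM in HCC827 (0.55 [0.45, 0.65]) and 7.84 and 6.98 FPKM in H1975 (−0.14 [−0.22, −0.05]).

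ANKRD1, a muscle ankyrin repeat protein and one of the best-known YAP targets, had the highest ratio of the members and was the only one called in opposite directions. In sensitive and resistant H1975 it had 135 and 33 counts, or 3.06 and 0.75 FPKM, 4.07-fold lower (−2.02 [−2.62, −1.47]). Only the sensitive library reached 1 FPKM there, so ANKRD1 was considered in H1975 through the library in which it was higher. In HCC827 it had 22 and 1064 counts, or 1.01 and 48.5 FPKM, 46.1-fold higher (5.53 [4.92, 6.21]). Resistant HCC827 therefore stood apart, and the other 3 libraries lay between 0.75 and 3.06 FPKM. The CCN genes encode secreted matricellular proteins and are the usual readouts of YAP and TAZ. CCN1 (CYR61) had 58.7 and 71.0 FPKM in H1975 (0.29 [0.22, 0.36]). In HCC827 it had 218.5 and 557 FPKM, 2.45-fold higher (1.30 [1.25, 1.34]), the highest level of any member. CCN2 (CTGF) showed the other pattern, with 5.07 and 11.1 FPKM in H1975, 2.21-fold higher (1.14 [0.93, 1.36]), and 2.79 and 2.92 FPKM in HCC827 (0.01 [−0.47, 0.49]). A 2-fold change of CCN2 in HCC827 lies outside that counting interval.

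RBMS3, an RNA-binding protein, was the only member called the same way in both lines. It had 99 and 206 counts in H1975, 2.09-fold higher (1.07 [0.71, 1.43]), and 11 and 49 counts in HCC827, 4.25-fold higher (2.09 [1.12, 3.18]). Its levels were low, from 0.26 to 1.73 FPKM, and its FPKM + 1 log2 ratios of 0.48 and 0.80 were not past 2-fold. In both lines only the resistant library reached 1 FPKM (0.96 and 1.73 FPKM in H1975, 0.26 and 1.2 FPKM in HCC827). With such sensitive levels RBMS3 could be considered only where it was higher, so the shared direction of its calls carries little weight. FJX1, a secreted glycoprotein, had 7.13 and 16.8 FPKM in HCC827, 2.26-fold higher (1.18 [0.94, 1.42]), and 8.85 and 10.8 FPKM in H1975 (0.30 [0.14, 0.47]). ASAP1, an Arf GTPase-activating protein, had 47.1 and 65.7 FPKM in HCC827 (0.42 [0.36, 0.49]) and 8.27 and 8.55 FPKM in H1975 (0.07 [−0.04, 0.19]). FJX1 and ASAP1 were both closer to 0 in H1975 than in HCC827. ARHGEF17 had 4.88 and 6.0 FPKM in H1975 (0.32 [0.18, 0.46]) and 4.94 and 6.24 FPKM in HCC827 (0.28 [0.09, 0.47]). CRIM1, a transmembrane protein that binds bone morphogenetic proteins, had 23.98 and 30.8 FPKM in H1975 (0.38 [0.31, 0.45]) and 22.6 and 24.2 FPKM in HCC827 (0.04 [−0.06, 0.15]). DOCK5, an exchange factor for Rac, had 6.35 and 7.91 FPKM in H1975 (0.22 [0.11, 0.33]) and 7.96 and 6.88 FPKM in HCC827 (−0.20 [−0.34, −0.06]).

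NT5E, F3 and MYOF had ratios below 0 in both lines, and only NT5E and F3 in HCC827 were called. NT5E (CD73), the ectoenzyme that makes adenosine, had 73.3 and 11.7 FPKM in HCC827, 6.55-fold lower (−2.71 [−2.85, −2.58]). In H1975 it had 53.0 and 34.4 FPKM (−0.61 [−0.68, −0.54]). F3 (tissue factor), the initiator of blood coagulation, had 129 and 53.3 FPKM in HCC827, 2.50-fold lower (−1.32 [−1.41, −1.23]), and 40.3 and 33.7 FPKM in H1975 (−0.24 [−0.33, −0.15]). MYOF (myoferlin), a membrane repair protein, was called in neither line, with 88.3 and 59.7 FPKM in H1975 (−0.55 [−0.59, −0.51]) and 87.6 and 64.2 FPKM in HCC827 (−0.50 [−0.56, −0.45]). All 3 genes had intervals below 0 in both lines, while RBMS3, CCN1, FJX1, ARHGEF17, AJUBA and NUAK2 had intervals above 0 in both. Over all genes considered in both lines, 17.8% had both intervals below 0 and 17.7% both above.

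The promoters of the targets were examined because several of these genes are textbook TEAD targets whose messenger RNA differed here. The 250 bases before the start were taken from the RefSeq promoter table (GRCh38.p14), and 26 of the 34 members were matched and searched. No window was searched for STK3, TEAD1, TEAD4, CCN1, CRIM1, ARHGEF17, ASAP1 and DOCK5. That does not show that the promoter table lacks them, and their promoters are not described here. The letters GGAATG, the core of the TEAD motif, were searched on both strands. A loose form of the AP-1 motif, TGANTCA with any base at N, was searched too, since AP-1 is known to bind beside TEADs. The motifs do not overlap in the windows printed. GGAATG or its reverse complement CATTCC occurred before 6 of 13 matched targets (AJUBA, AMOTL2, ANKRD1, CCN2, NUAK2 and PTPN14) and 1 of 13 matched pathway genes (YAP1). Some genes have more than 1 window, and counted by window it occurred in 6 of 15 for targets and 1 of 22 for pathway genes. Of the 35116 windows of the same length in the table, with no chromosome left out, 11.9% held it and 0.94% held 2 or more. The AP-1 letters occurred before ANKRD1 and F3 among the targets, before LATS1 and MOB1B among the pathway genes, and in 6.57% of all windows. A match of letters is a description and not evidence of binding.

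The windows of 4 targets are shown 5′ to 3′ on the gene's strand, with matches in capitals: the 3 genes with 2 or more TEAD matches, and AMOTL2 as a feedback target with 1, in 1 of its 2 windows.
CCN2 (chr6:131951373-131951622, minus strand): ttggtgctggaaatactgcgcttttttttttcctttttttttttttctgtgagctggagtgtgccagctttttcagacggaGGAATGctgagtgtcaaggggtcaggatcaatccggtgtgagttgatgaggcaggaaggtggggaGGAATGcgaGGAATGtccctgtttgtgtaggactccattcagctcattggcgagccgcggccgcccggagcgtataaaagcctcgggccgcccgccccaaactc
ANKRD1 (chr10:90921088-90921337, minus strand): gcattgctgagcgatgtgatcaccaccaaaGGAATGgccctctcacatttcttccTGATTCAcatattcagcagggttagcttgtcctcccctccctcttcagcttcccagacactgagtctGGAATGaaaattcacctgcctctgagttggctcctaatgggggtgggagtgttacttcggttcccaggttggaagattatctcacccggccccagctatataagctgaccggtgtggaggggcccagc
NUAK2 (chr1:205321746-205321995, minus strand): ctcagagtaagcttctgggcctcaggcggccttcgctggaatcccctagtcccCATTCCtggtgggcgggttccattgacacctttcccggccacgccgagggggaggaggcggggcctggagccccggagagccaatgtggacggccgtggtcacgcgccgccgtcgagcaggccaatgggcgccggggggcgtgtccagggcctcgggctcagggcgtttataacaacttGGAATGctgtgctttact
AMOTL2 (chr3:134374448-134374697, minus strand): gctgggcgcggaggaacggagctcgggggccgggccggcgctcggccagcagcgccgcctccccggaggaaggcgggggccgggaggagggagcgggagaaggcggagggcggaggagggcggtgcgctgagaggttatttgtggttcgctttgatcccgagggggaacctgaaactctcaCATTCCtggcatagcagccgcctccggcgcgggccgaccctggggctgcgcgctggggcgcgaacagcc

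The CCN2 window held 3 TEAD matches, whose first bases lay 169, 104 and 95 bases before the start. The ANKRD1 window held TEAD matches at 220 and 128 bases and a match to the loose AP-1 letters (TGATTCA, with T at N) at 195 bases before the start. NUAK2 had matches at 197 and 18 bases, the first in the CATTCC orientation, and AMOTL2 at 69 bases in that orientation. In H1975 the 6 targets with the TEAD letters did not share a direction. Log2 ratios there were 0.22 (AJUBA), 1.14 (CCN2, called higher), 0.26 (NUAK2), −0.21 (AMOTL2), −2.02 (ANKRD1, called lower) and −0.14 (PTPN14). In HCC827 CCN2, with the most matches, had 0.01. The others were above 0 there: AJUBA 0.51, AMOTL2 0.58, NUAK2 0.78, PTPN14 0.55 and ANKRD1 5.53, 46.1-fold higher and called. YAP1, the pathway gene with these letters, had 0.41 in H1975 and −0.47 in HCC827. A link between the letters and the ratios was not tested. LATS2, RBMS3, FJX1, F3 and NT5E, the other matched members called in at least 1 line, had no match to the TEAD letters in their windows, which says nothing of other parts of these genes.

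Set side by side, the lines showed no common direction for the members as a group. The lines share no library. Of the 33 members considered in both, 14 (42.4%) had intervals on the same side of 0 and 10 (30.3%) on opposite sides, while over the 10961 genes considered in both lines 35.5% and 18.1% did. The members on opposite sides were MOB1B, NF2, YAP1, WWTR1, AMOTL1, AMOTL2, PTPN14, WWC1, ANKRD1 and DOCK5. Apart from ANKRD1, none of these was called in either line. The ratio was further from 0 in HCC827 for 22 of the 33 members (66.7%) and for 58.1% of all genes.

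**Figure D4:**
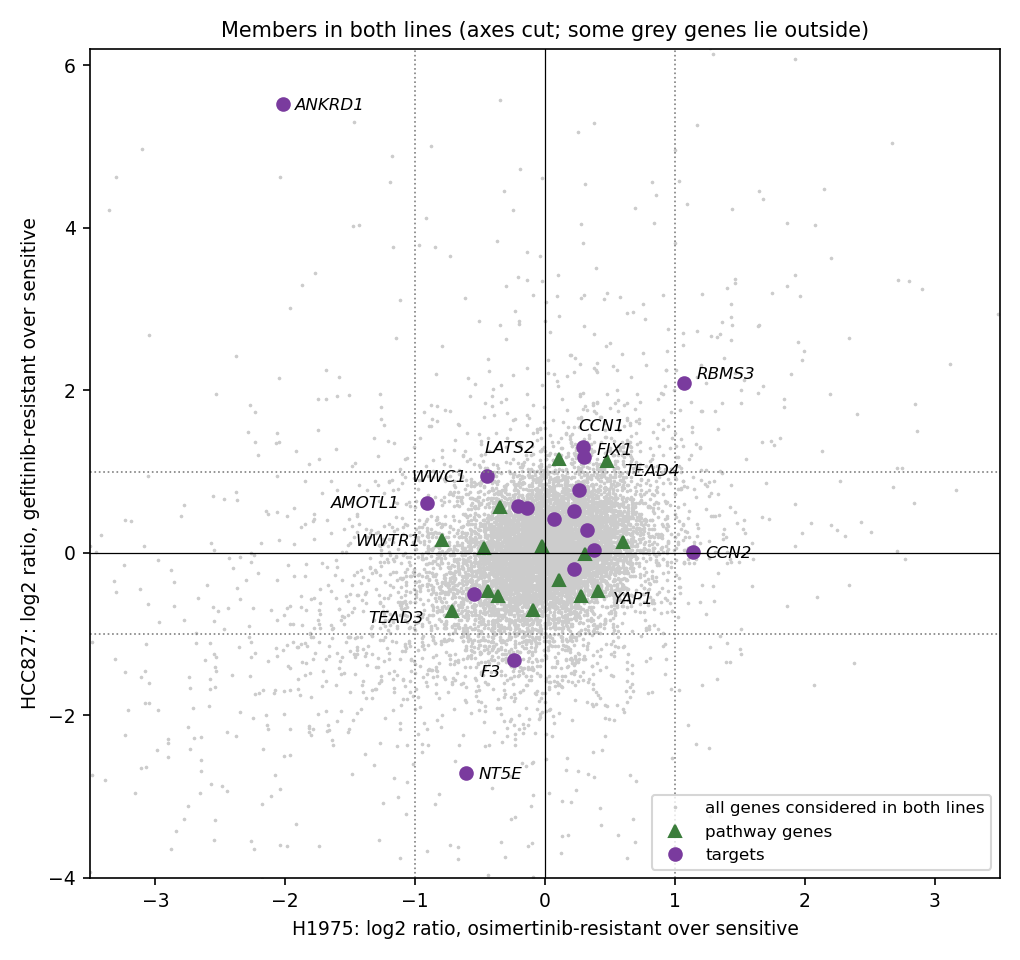
Log2 ratio of resistant over sensitive in H1975 (horizontal axis) and in HCC827 (vertical axis) for pathway genes (triangles), targets (circles) and all 10961 genes considered in both lines (grey); dotted lines mark 2-fold and the axes leave out some grey genes. RBMS3 is the only member beyond 2-fold upward in both, and only its resistant libraries reached 1 FPKM. ANKRD1 lies at the upper left.

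Members were also tested over both lines at once by edgeR's quasi-likelihood method, in which the cell line was a block and the 2 lines, each with its own drug, were the replicates (1 residual degree of freedom). At an adjusted p under 0.05 it called 0 of 34 members and 0% of the 13036 genes tested. At an unadjusted p under 0.05 it held 4 members (RBMS3, NT5E, TEAD4 and TEAD3) and 10.4% of all genes, so the members' share was close to that over all genes. RBMS3 had an edgeR log2 difference of 1.54, higher in 2 of 2 lines (adjusted p = 0.431), and NT5E one of −1.64, lower in 2 of 2 (edgeR adjusted p = 0.443). TEAD4 had an edgeR log2 difference of 0.82 (adjusted p = 0.461) and TEAD3 one of −0.70 (adjusted p = 0.474), each in the same direction in 2 of 2 lines. DESeq2 on the same genes called 443 genes and 1 member, NT5E (DESeq2 adjusted p = 0.0266), and limma on log2(FPKM + 1) called 8 genes and no member. A difference between the lines in the response could not be tested, as the 4 libraries leave no residual degrees of freedom for it.

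Levels also differed between the lines themselves. The gene models behind the tables differ between the lines, so levels were compared for the 25 members whose mean transcript length stayed within 10% over the 4 libraries, with no spread available. The share of all genes that differ 2-fold between the lines was not computed. The counts below therefore describe these members and do not set them apart from other genes. Between the sensitive libraries, 3 of these were at least 2-fold higher in HCC827: ASAP1 (5.70-fold), CCN1 (3.72-fold) and F3 (3.20-fold). ANKRD1 was the 1 member at least 2-fold higher in sensitive H1975 (3.03-fold). Between the resistant libraries 5 were at least 2-fold higher in HCC827, namely ANKRD1 (64.6-fold), CCN1 (7.85-fold), ASAP1 (7.68-fold), WWTR1 (3.14-fold) and TEAD4 (2.54-fold). CCN2 (3.79-fold) and NT5E (2.94-fold) were higher in resistant H1975. The lines, though not the libraries within a line, stood in opposite order for the CCN genes: CCN1 was highest in resistant HCC827 and lowest in sensitive H1975, and CCN2 was highest in resistant H1975 and lowest in sensitive HCC827.

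Mean transcript length per gene, which RSEM weights by the abundance of a gene's transcripts, differed by at least 10% within a line for 4 of the members considered there. In H1975 these were AMOTL1, described with its values, and RBMS3 (4595 to 5296 bases), against 3.55% of all genes compared. In HCC827 they were MOB1B (6150 to 5323 bases) and VGLL3 (7641 to 9192 bases), against 1.80% of all genes compared. VGLL3 in H1975 was not considered, with 1.2 and 5.85 counts behind lengths of 2495 and 6669 bases. RBMS3 and VGLL3 rest on few counts, and no error is given for these lengths.

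Other regulators of the pathway were taken as a list of 46 genes that act upstream of or beside the core: cadherins FAT and DCHS, polarity proteins, MAP4K and TAOK kinases, RASSF proteins and the STRIPAK complex. In H1975 34 were considered, 0 were called higher and 5 lower, with a median log2 ratio of −0.12, beside the 3.21% higher and 8.56% lower over all genes. CRB3, an apical polarity protein, had 10.1 and 0.06 FPKM there (210 and 1 counts, −7.71 [−13.02, −5.21]). The protocadherin FAT2 was 81.7-fold lower (411 and 5 counts, 1.33 and 0.02 FPKM, −6.35 [−7.98, −5.12]). Only its sensitive library reached 1 FPKM. PATJ, a partner of the Crumbs polarity proteins, was 2.63-fold lower. STRIP2, a STRIPAK subunit, was 3.13-fold lower and the kinase TNIK 2.41-fold lower. In HCC827 37 were considered, 1 was called higher and 5 lower, near the 7.05% and 11.0% over all genes, with a median of −0.07. CRB3 (2.32-fold) and PATJ (2.99-fold) were lower there too, as were the kinases TAOK3 (3.49-fold) and MINK1 (2.36-fold). VGLL1, a TEAD cofactor, had 69 counts in sensitive HCC827 and no entry in the resistant library. With that library set to a floor of 3 counts, VGLL1 was 24.1-fold lower, and its log2 interval lay below −4.26. It was not listed in H1975. TNIK, lower in H1975 (3.35 and 1.39 FPKM), was 3.85-fold higher in resistant HCC827 (0.88 and 3.53 FPKM). In HCC827 only the resistant library reached 1 FPKM, so TNIK could be considered there only where it was higher. CRB3 and PATJ are genes of epithelial cells, and moved with the epithelial markers given above; that link was not tested.

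Targets outside the member list were taken from 2 lists. A list of 6 genes that complete a published YAP/TAZ signature included 5 considered in each line. In H1975 IGFBP3, a carrier of insulin-like growth factors, was 3.36-fold lower (31.6 and 9.32 FPKM) and none was called higher. The receptor kinase AXL had 16.9 and 33.1 FPKM, just under 2-fold. In HCC827 3 were higher: AXL (4.74 and 64.5 FPKM, 14.1-fold), the cytokine TGFB2 (3.57-fold) and the stress gene GADD45A (2.34-fold). IGFBP3 was 3.95-fold lower there (220 and 57.9 FPKM). The median was −0.09 in H1975 and 1.22 in HCC827. Over all genes 3.21% were called higher and 8.56% lower in H1975, and 7.05% and 11.0% in HCC827, but the list has only 5 genes considered in each line.

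A further list of 14 reported targets had 12 genes considered in H1975, of which 5 were called higher and 1 lower (median 0.07), and 13 in HCC827, of which 8 were higher and 2 lower (median 1.30). These shares stand beside the 3.21% and 7.05% of all genes called higher in the 2 lines; the genes were chosen with earlier results of these data known, which limits what the counts can show. EDN1 (endothelin-1), FSTL1, PTX3, DLC1 and INHBA were higher in both lines. In HCC827, PTX3, DLC1 and INHBA reached 1 FPKM only in the resistant library, so they could be considered there only where they were higher. INHBA, an activin subunit, had 129 and 2549 counts in H1975 (19.9-fold). In HCC827 it had 0 and 77 counts, 24.5-fold with the sensitive library at the floor, and its log2 interval lay above 4.28. FSTL1, a secreted glycoprotein, was 2.27-fold and 2.46-fold higher, and DLC1, a tumour suppressor, 2.70-fold and 8.40-fold higher. THBS1, the matrix protein thrombospondin, had 103 and 89.4 FPKM in H1975 (−0.19 [−0.23, −0.16]) and 10.7 and 292 FPKM in HCC827 (26.3-fold higher). ITGB2, an integrin subunit of leukocytes, was 3.42-fold lower and PHLDB2 3.16-fold higher in resistant HCC827, and COL8A1, a collagen gene, was 3.44-fold lower in resistant H1975.

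**Figure D5:**
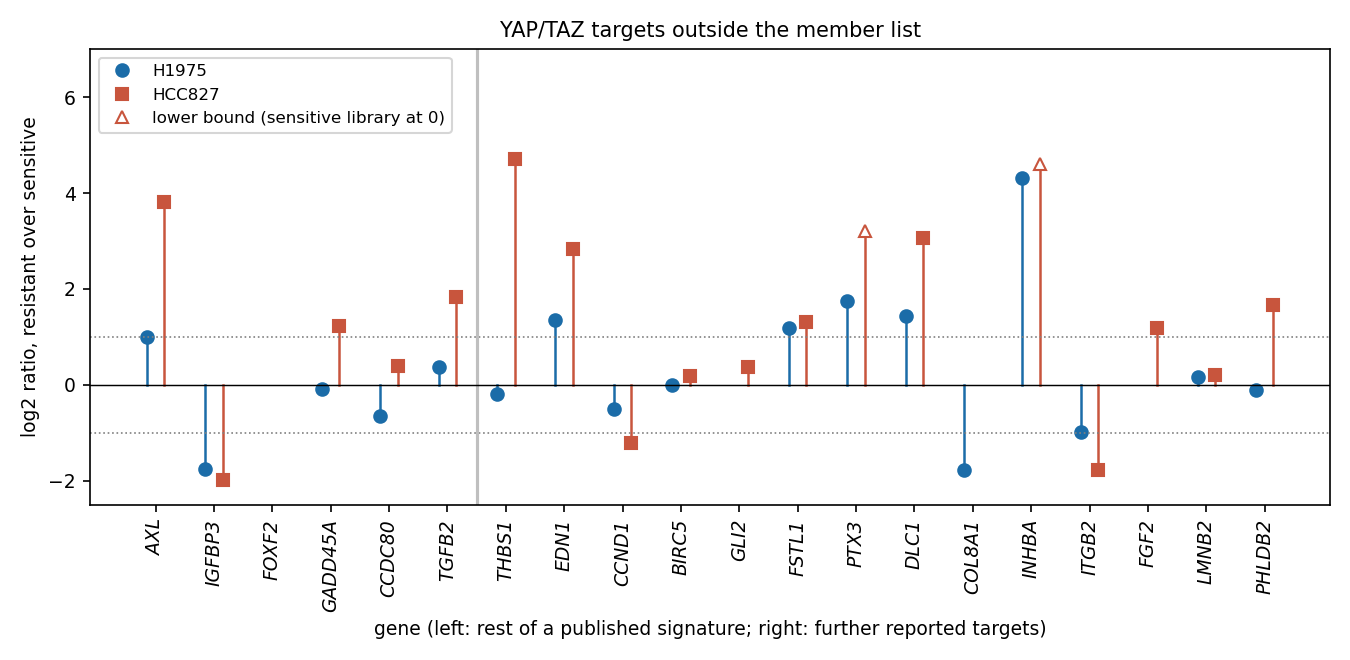
Log2 ratio of resistant over sensitive (vertical axis) in H1975 (circles) and HCC827 (squares) for YAP/TAZ targets outside the member list. Genes not considered in a line have no point, and dotted lines mark 2-fold. Open triangles, named lower bounds in the figure, had no count in the sensitive library, which was set to 3 counts. THBS1 reaches 4.72 in HCC827 and lies below 0 in H1975, IGFBP3 lies below −1 in both lines, and INHBA lies above 4 in both.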

How the data were processed

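TRIzol was used to extract RNA and an MGIEasy kit to make mRNA libraries, per the labels' protocols. HISAT2, Bowtie2 and RSEM were used with hg19, per the submitters' processing notes; no source used here gives versions, settings or use of strand. The deposited expected counts are RSEM estimates, not normalized by the authors and not always whole. Of the 34 members, 17 had whole counts in all libraries; the others can share reads with other genes. The deposited FPKM values were scaled by the authors for transcript length and library total. The tables list no value below 0.01 FPKM.

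Symbols came from a RefSeq table (GRCh38.p14) through Gene IDs. Expected counts were rounded and scaled by edgeR 4.0.16 TMM factors from the genes considered (1.005 and 0.995 in H1975, 0.981 and 1.019 in HCC827). Intervals were exact (Clopper-Pearson) and cover counting error only; reads were not unique molecules. A library at 0 was set to 3 counts, or to the count of 0.01 FPKM where larger. The test over both lines used edgeR on genes listed in all 4 tables, kept by filterByExpr, with Benjamini-Hochberg adjustment, two-sided; pairs come from the cell line, and each line had its own drug. Separate cultures are not described. The procedures were tested on simulated data. Alternatives were DESeq2 1.42.0 size factors, total counts, FPKM ratios, other filters and folds, DESeq2, limma 3.58.1 and a fit with no line block. Members, lists and the naming rule (all members; list genes called in either line, at most 8 a list and line by absolute ratio) were chosen with earlier results of these data known. The further targets list first held 1 more gene, which was taken out and is not reported here.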

Additional observations from a re-analysis of the deposited data

Results flagged for a closer look

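ANKRD1 was the only member called lower in one resistant line and higher in the other. Its log2 ratio was −2.02 in H1975 (135 and 33 counts) and 5.53 in HCC827 (22 and 1064 counts). In H1975 only the sensitive library reached 1 FPKM (3.06 and 0.75 FPKM). The lower call there was lost with the filter at 5 FPKM. The difference between the lines was not tested, since each group has 1 library.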

How the results depend on the processing

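DESeq2 size factors and TMM over every listed gene (the latter chosen after seeing the data) left each count of called members the same. Scaling by total counts, and FPKM + 0.1, gave 5 targets higher in HCC827 in place of 4; FPKM + 1 and the filter at 5 FPKM gave 3. Of the 335 log2 ratios recomputed under another scaling or as FPKM ratios, 320 stayed within their counting interval, 15 moved and none reversed a call; the largest shift was 1.29, under FPKM + 1. In H1975 the 2 targets called higher became 0 with FPKM + 1, 1 with FPKM + 0.1, 1 with the filter at 5 FPKM and 0 at 3-fold. The 1 target called lower became 2 with FPKM + 0.1 (AMOTL1 joined ANKRD1), 0 with the filter at 5 FPKM and 3 at 1.5-fold. No pathway gene was called in H1975 at 2-fold, and at 1.5-fold 1 was higher and 2 lower. In HCC827 the 2 pathway genes called higher became 0 at 3-fold, and 2 were lower at 1.5-fold. The 4 targets called higher became 7 at 1.5-fold and 2 at 3-fold, and the 2 called lower became 1 at 3-fold. The median log2 ratio of the pathway genes ran from −0.03 to 0.04 in H1975 and from −0.01 to 0.08 in HCC827, and that of the targets from 0.12 to 0.17 and from 0.53 to 0.58. Over both lines, DESeq2 called 1 member and edgeR 0, and the fit with no replicate block (cell line left out) called 0, with 0 members and 307 genes at an unadjusted p under 0.05. Leaving out a library was not possible with 1 library a group. Depth limits the low genes, RBMS3 (11 and 49 counts) and CCN2 (72 and 76 counts) in HCC827 among them.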
